A study of Mus musculus with 21 samples.

Results

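Estrogen receptor alpha (ERα) peaks of visceral white fat (vWAT) that were listed after estradiol, had no overlapping vehicle peak and lay at the end of a gene are described here. A peak belonged to the set when its summit was within 1 kb of either end of the span of a protein-coding gene (mm10, chromosomes 1 to 19 and X) and no base of it overlapped a peak of the vWAT vehicle list. The members were thus chosen by measured values, the presence and absence of peaks. Of 20715 vWAT estradiol peaks, 16015 (77.3%) had no vehicle overlap, and 2045 of these (12.8%) met the rule. Neither the difference between estradiol and vehicle nor the enrichment of these peaks is therefore a finding, and both are given as descriptions.

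All animals were CD-1 mice labelled as 10 weeks old. The peak lists came from ERα chromatin immunoprecipitation and sequencing (ChIP-seq) of vWAT from mice given estradiol (4 libraries), scWAT, subcutaneous white fat, with estradiol (3), BAT, brown fat, with estradiol (1), Liver with estradiol (2), and vWAT from mice given vehicle (2). Each group had 1 deposited list covering its libraries, so no spread between animals and no test over replicates could be had. No source used here gives the sex, the dose and timing of estradiol or the read depth. The lists held 20715 (vWAT estradiol), 17971 (scWAT), 5193 (BAT), 21411 (Liver) and 7400 (vWAT vehicle) peaks on the chromosomes used, and absence from a list means only that no peak was listed there. Peak lists carry no expression values, so the tissue labels were not checked against marker genes.

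ERα is a nuclear receptor that, once it has bound estradiol, attaches to DNA either directly at the estrogen response element, an inverted repeat of GGTCA, or through other factors already on the DNA. In breast cancer cells most of its binding is known to lie in distal enhancers, and peaks at gene starts are the smaller class. Starts of broadly expressed genes usually lie in CpG-rich DNA with sites for general factors such as NRF1 and ETS proteins, whereas starts of genes with restricted expression are more often poor in CpG.

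The promoter sequences that follow, chosen after they were seen, include CpG-poor and CpG-rich DNA under the estradiol-only peaks. Each is the RefSeq window of 250 bases before to 50 after an annotated transcription start (GRCm38.p6, the assembly of mm10) that held the summit of the peak, printed along the strand of the gene. Capitals mark GGTCA or TGACC, the single arm of the estrogen response element, and the NRF1 motif (GCGCA, any base, then GCGC). In Kars the NRF1 motif lies on the other strand and reads GCGC, any base, then TGCGC. The Mdfic window is chr6:15720411-15720710 (plus strand), that of Plscr4 is chr9:92457128-92457427 (plus), that of Ckap2l is chr2:129297163-129297462 (minus), that of Mrpl9 is chr3:94443086-94443385 (plus), that of Kars is chr8:112011305-112011604 (minus) and that of Pdia4 is chr6:47813463-47813762 (minus).
Mdfic: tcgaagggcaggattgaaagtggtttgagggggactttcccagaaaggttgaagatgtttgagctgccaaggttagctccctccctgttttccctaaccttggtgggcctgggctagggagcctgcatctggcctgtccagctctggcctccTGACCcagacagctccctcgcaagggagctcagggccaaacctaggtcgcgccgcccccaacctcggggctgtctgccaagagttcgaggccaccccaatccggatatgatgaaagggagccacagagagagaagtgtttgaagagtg
Plscr4: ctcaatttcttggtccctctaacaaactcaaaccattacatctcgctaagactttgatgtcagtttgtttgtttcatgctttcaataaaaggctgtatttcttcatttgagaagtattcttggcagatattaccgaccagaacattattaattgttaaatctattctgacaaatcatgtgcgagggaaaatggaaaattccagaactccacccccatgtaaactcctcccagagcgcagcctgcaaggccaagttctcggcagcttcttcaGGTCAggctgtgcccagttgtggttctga
Ckap2l: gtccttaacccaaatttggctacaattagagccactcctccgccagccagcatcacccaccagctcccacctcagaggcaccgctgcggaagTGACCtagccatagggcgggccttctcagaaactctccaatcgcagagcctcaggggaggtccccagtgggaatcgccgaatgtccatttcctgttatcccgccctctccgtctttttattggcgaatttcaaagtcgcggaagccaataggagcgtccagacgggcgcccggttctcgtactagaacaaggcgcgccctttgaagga
Mrpl9: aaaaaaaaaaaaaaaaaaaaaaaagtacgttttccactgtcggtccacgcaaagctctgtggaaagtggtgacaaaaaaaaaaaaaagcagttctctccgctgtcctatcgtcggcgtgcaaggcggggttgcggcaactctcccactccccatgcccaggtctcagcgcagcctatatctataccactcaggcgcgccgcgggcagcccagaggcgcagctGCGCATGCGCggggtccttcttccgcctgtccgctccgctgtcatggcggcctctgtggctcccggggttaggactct
Kars: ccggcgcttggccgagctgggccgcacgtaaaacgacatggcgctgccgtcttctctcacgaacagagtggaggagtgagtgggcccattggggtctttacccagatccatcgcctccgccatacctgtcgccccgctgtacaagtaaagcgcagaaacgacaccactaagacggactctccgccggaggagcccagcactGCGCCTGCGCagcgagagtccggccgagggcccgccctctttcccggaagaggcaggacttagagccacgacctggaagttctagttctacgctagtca
Pdia4: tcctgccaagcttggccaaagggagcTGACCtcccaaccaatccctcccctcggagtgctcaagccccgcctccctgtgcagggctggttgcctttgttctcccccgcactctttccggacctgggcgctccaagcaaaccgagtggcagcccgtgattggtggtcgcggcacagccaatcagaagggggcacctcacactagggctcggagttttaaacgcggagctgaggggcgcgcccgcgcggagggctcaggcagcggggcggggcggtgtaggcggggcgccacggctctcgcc

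Mdfic, which encodes a protein that binds and inhibits myogenic transcription factors, and Plscr4, a phospholipid scramblase gene, had peaks that were found in scWAT and not in Liver, and that of Plscr4 also in BAT. Their windows had observed-to-expected CpG ratios of 0.315 and 0.384. The Mdfic summit lay at base 194 of the window, 39 bp from the middle of its TGACC arm at bases 153 to 157. The Plscr4 summit lay at base 293, 19 bp from its GGTCA arm at bases 272 to 276. Ckap2l, a mitotic spindle gene whose peak was found in all 3 other tissues, had a CpG ratio of 0.789. Mrpl9, a mitochondrial ribosomal protein gene, and Kars, the lysyl-tRNA synthetase gene, had peaks found in Liver alone among the other tissues, CpG ratios of 0.972 and 0.930, an NRF1 motif and no GGTCA arm. In Pdia4, a protein disulfide isomerase gene, the summit at base 29 fell on a TGACC arm at bases 27 to 31. Of the named genes whose window held the summit, Tbc1d4 and Hspa1a are not printed. Their CpG ratios were 0.521 and 0.542. Tbc1d4 had no GGTCA arm and no NRF1 motif, and the arm of Hspa1a lay 234 bp from its summit.

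The estradiol-only peaks at gene ends lay mainly at gene starts but less tightly than peaks that were also listed with vehicle. The strand of the gene was known for 17274 of 21631 protein-coding genes. Where the nearest end had a known strand, it was a start for 1387 of 1608 peaks (86.3%, 95% Wilson interval 84.5 to 87.9) and a far end, where transcription stops, for 221 (13.7%, 12.1 to 15.5). Among the 2936 peaks at gene ends held with vehicle, the far-end share was 59 of 2476 (2.38%, 1.85 to 3.06). The median distance to the nearest start was 281 bp for estradiol-only peaks and 125 bp for held peaks. Of the estradiol-only summits whose nearest end was a start, 44.7% lay within 250 bp of it, against 76.9% of held summits. The summit lay inside the span of the gene for 50.3% of estradiol-only peaks nearest a start and for 41.2% of held ones. All these intervals cover counting error over peaks alone.

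**Figure D1:**
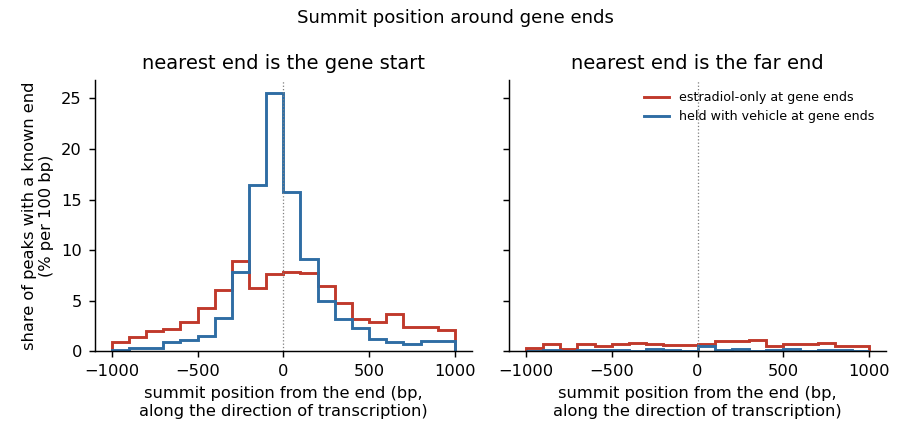
Position of summits around the nearest gene end, a start (left) or a far end (right), in 100 bp steps (x axis, negative is upstream), as the share of peaks of each class whose nearest end has a known strand (y axis, %), for estradiol-only peaks and peaks held with vehicle. Held summits pile up just before the start, with 25.6% in the 100 bp upstream of it, whereas estradiol-only summits spread across the window, with no step above 8.96%.

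The limits of the rule fell among ordinary peaks. The outermost members lay 999 bp from an end of Foxn2 (enrichment 4.96), 997 bp from Zbtb21 (3.47) and 995 bp from Rnf125 (4.59). The nearest peaks left out lay 1001 bp from Mrpl58 (4.51), 1001 bp from Klf10 (3.73) and 1002 bp from Mgarp (3.21). On the vehicle side, 45 of the 2045 peaks (2.20%) had a vehicle peak within 100 bp of their edge without overlap and 188 (9.19%) had one within 1 kb. The corresponding shares of the 13970 estradiol-only peaks away from gene ends were 0.351% and 1.91%. The median gap to the nearest vehicle peak was 41.5 kb at gene ends and 73.3 kb away from them.

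Enrichment, the ratio the authors deposited for each peak over a background that is not stated, was low in this set. Its median was 4.30 (quartiles 3.77 and 5.06, range 2.55 to 17.6), against 4.66 (4.01 and 6.06) for estradiol-only peaks away from gene ends and 7.03 (4.92 and 10.4) for peaks at gene ends held with vehicle. Of the 2045 peaks, 1692 (82.7%) reached a −log10 q-value of 2, against 88.7% of estradiol-only peaks away from gene ends and 97.4% of held ones. The median peak width was 375 bp, against 405 bp and 576 bp in these 2 classes. Of the weakest quartile of the whole vWAT estradiol list, 16.9% of estradiol-only peaks lay at gene ends, and of the strongest quartile 5.28% did. Among the 100 estradiol-only peaks of highest enrichment, 2 lay at a gene end (Capn9 and Htra1).

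**Figure D2:**
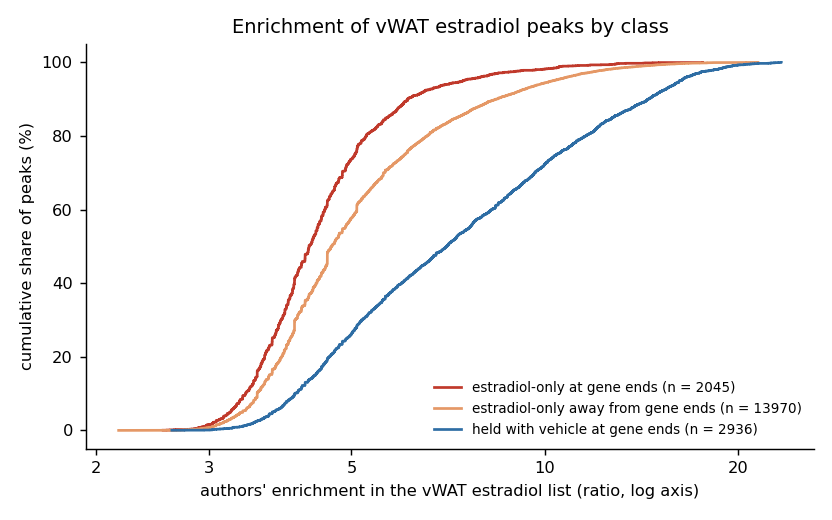
Cumulative share of peaks (y axis, %) by deposited enrichment in the vWAT estradiol list (x axis, log scale) for 3 classes. The line of estradiol-only peaks at gene ends lies to the left of both others, with a median of 4.30 against 4.66 away from gene ends and 7.03 for peaks held with vehicle.

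The 15 strongest peaks of the set lay at genes of varied function, and all 15 were also found in scWAT. The peak of highest enrichment (17.6) was at chr8:124618126-124618776, inside Capn9, a calpain protease gene, 223 bp from its far end, and was found in scWAT and Liver. The next (15.1) was at chr7:130935472-130936121, 354 bp outside the start of Htra1, which encodes a secreted serine protease, and was found in scWAT and BAT. Mdfic followed with 14.7 at chr6:15720268-15720869, inside the gene. Aqp3, a channel for water and glycerol, had 14.3 at chr4:41097557-41098213, 322 bp inside its start, and the water channel gene Aqp5 had 12.9 at chr15:99590392-99590848, 401 bp outside its start.

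Adh7, an alcohol dehydrogenase gene of retinol metabolism, had a peak of 14.2 near its far end. Dsc2, which encodes the desmosomal cadherin desmocollin, had 13.3 with no strand given. Trib3, a pseudokinase gene of the stress response, had 12.6 just beyond its far end. The peak near Ppp1r1b, a phosphatase inhibitor gene of dopamine signalling (13.03), was 979 bp from the gene, which also carried a peak held with vehicle (13.3). The others of the 15 strongest were at Myrip (12.97), Plscr4 (12.8), H2al3 (12.8), Tecpr2 (12.7), Rps6kl1 (12.2) and H2-T-ps (11.8). Of the 15, 4 were found in BAT (Htra1, Dsc2, Myrip and Plscr4) and 2 in Liver (Capn9 and Dsc2). Over the 37 peaks with an enrichment of 10 or more, 37 were found in scWAT, 7 in BAT and 10 in Liver.

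Some genes carried more than 1 such peak. The 2045 peaks lay at ends of 2207 genes, since 268 peaks were within reach of 2 genes, and 113 genes had 2 or more. Separate peaks at both ends were found for 32 genes. Htra1 had its second, weaker peak (5.45) 193 bp beyond the far end. Gapdh, the glycolytic enzyme gene, had 9.07 beyond its far end and 6.03 just inside its start, where a vehicle peak lay 0.154 kb away. Ube2h, a ubiquitin-conjugating enzyme gene, had 7.87 and 6.42, Dctn3, a dynactin subunit gene, 7.09 and 6.05, and Epb41, a membrane skeleton gene, 6.47 and 4.19, each at the far end and at the start in that order. The far-end peaks of Gapdh and Epb41 were also within reach of Iffo1 and Tmem200b, and the start peak of Dctn3 was within reach of Arid3c. By chromosome, the number of estradiol-only peaks at gene ends per 100 protein-coding genes was 3.83 on X and 7.59 to 11.98 on the autosomes. X had few estradiol-only peaks of any kind (224), and the 37 at gene ends were 16.5% of them (12.2 to 21.9), against 12.8% over all chromosomes.

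The lists of the other tissues were not used by the rule. Estradiol-only peaks at gene ends were found in Liver far more often than estradiol-only peaks elsewhere, and in scWAT slightly more often. Of the 2045 peaks, 659 (32.2%, 30.2 to 34.3) overlapped a Liver peak, against 928 of 13970 away from gene ends (6.64%, 6.24 to 7.07) and 22.8% of the whole vWAT estradiol list. The difference was 25.6 percentage points (interval 23.5 to 27.7, from the Wilson limits). In scWAT 892 were found (43.6%, 41.5 to 45.8), against 38.0% (37.2 to 38.8) away from gene ends and 48.4% of the whole list. The scWAT difference of 5.59 points shrank to 0.0206 points when sharing meant summits at most 100 bp apart, and turned when all lists were held to 5193 peaks (−1.54 points, −9.38 to 5.94). In BAT 136 were found (6.65%, 5.65 to 7.81), against 3.45% (3.16 to 3.77) and 11.1% of the whole list. The Liver difference was 14.4 points with summits at most 100 bp apart and 9.27 points at equal list size, and the BAT difference of 3.20 points was 0.457 points (−0.104 to 1.19) among peaks that reached a −log10 q-value of 2 in their own list and 4.39 points (−0.116 to 10.5) at equal list size, both with intervals that span 0. With 1 list per tissue no test over animals was possible.

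Peaks at gene ends held with vehicle were shared far more widely, with 83.3% in Liver, 85.9% in scWAT and 42.3% in BAT. The 1764 held peaks away from gene ends had 39.6% in Liver, 73.2% in scWAT and 25.3% in BAT. A higher share at gene ends than elsewhere was therefore not particular to estradiol-only peaks. The 898 vehicle-only peaks at gene ends, the mirror set, had 41.3% (38.1 to 44.6) in Liver, 38.6% (35.5 to 41.9) in scWAT and 6.46% in BAT. Within the Liver list, the peaks overlapping an estradiol-only peak at a gene end had a median enrichment of 4.65, against 4.16 for those overlapping estradiol-only peaks elsewhere, 7.12 for those overlapping held peaks at gene ends and 3.91 over all Liver peaks. Within the scWAT list the medians were 3.29, 3.95, 4.20 and 3.43 in the same order.

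Peaks at starts and at far ends differed in how often other tissues had them. Of the 1358 peaks within reach of starts alone, 494 (36.4%, 33.9 to 39.0) were found in Liver. Of the 214 peaks within reach of far ends alone, 19 (8.88%, 5.76 to 13.4) were, which overlaps the interval of estradiol-only peaks away from gene ends. For scWAT the shares were 45.8% (43.2 to 48.5) at starts and 31.3% (25.5 to 37.8) at far ends, and for BAT 7.88% and 2.34%. Taken by the nearest end instead, the Liver difference between starts and far ends was 26.1 points (20.8 to 30.4). At equal list size it was 8.46 points, with an interval that spans 0 (−6.52 to 17.8). The median enrichment in vWAT was 4.52 at far ends and 4.24 at starts. No overlap with any other tissue was seen for 63.6% (56.9 to 69.7) at far ends and 38.1% (35.5 to 40.7) at starts. The remaining peaks were within reach of a start and a far end (61) or of genes with no strand given (412). Peaks held with vehicle had the same order. In Liver, 84.3% of those at starts alone (n = 2359) were found and 58.8% (45.2 to 71.2) of those at far ends alone (n = 51). Their shares were 86.5% and 78.4% in scWAT and 43.2% and 25.5% in BAT.

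**Figure D3:**
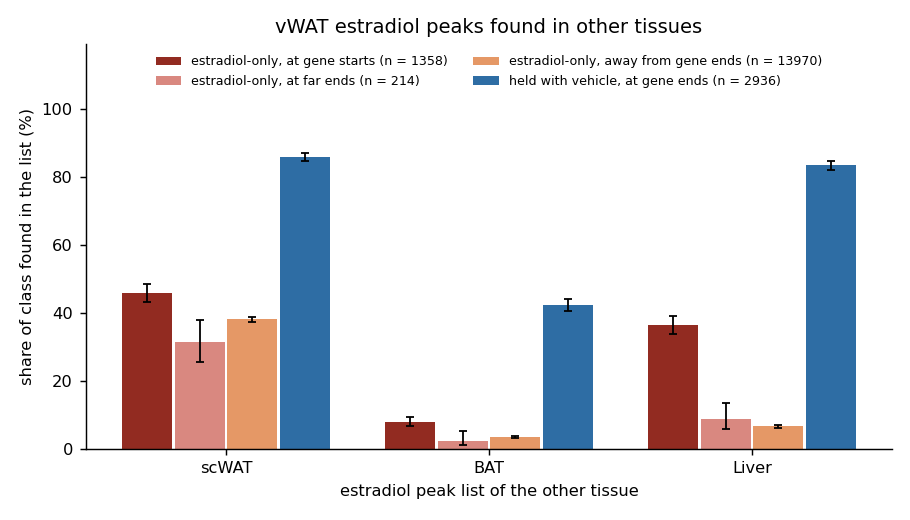
Share of vWAT estradiol peaks of 4 classes (y axis, %) that overlapped a peak of the scWAT, BAT or Liver estradiol list (x axis), with 95% Wilson intervals over peaks. In Liver, estradiol-only peaks at gene starts stand at 36.4%, between those at far ends (8.88%) or away from gene ends (6.64%) and those held with vehicle at either end (83.3%).

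The share found in scWAT was higher in each stronger quartile of vWAT enrichment, whereas the share found in Liver had no such order. The whole vWAT estradiol list was cut at its enrichment quartiles (4.08, 4.84 and 6.64). From the weakest to the strongest quartile, the share of estradiol-only peaks at gene ends found in scWAT was 33.4%, 40.6%, 52.5% and 86.5%, against 20.1%, 24.1%, 41.8% and 79.3% of estradiol-only peaks away from gene ends. The share at gene ends was above the share elsewhere in each quartile. In Liver the shares at gene ends were 26.4%, 36.6%, 37.9% and 30.4% (23.6 to 38.2 in the last, n = 148), against 6.52%, 6.54%, 6.53% and 7.12% away from gene ends. Peaks at gene ends held with vehicle reached 58.3%, 70.0%, 76.6% and 94.3% in Liver.

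**Figure D4:**
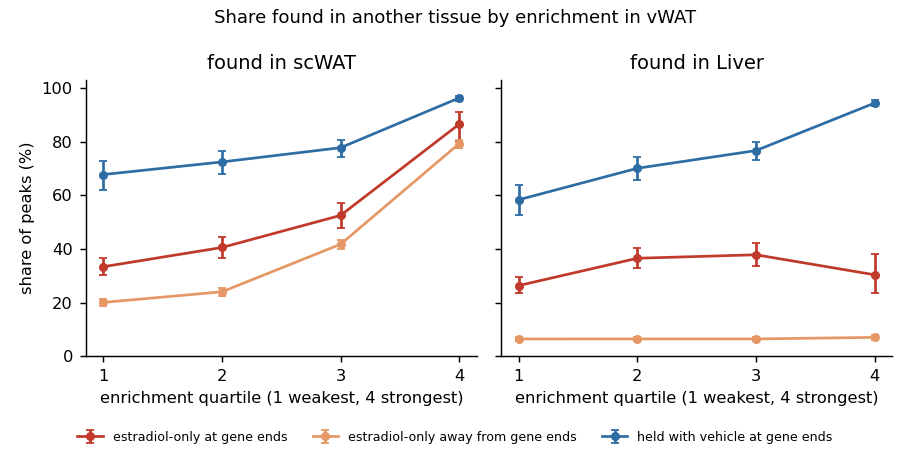
Share of peaks found in scWAT (left) and Liver (right) by quartile of enrichment in the vWAT estradiol list (x axis) for 3 classes (y axis, %), with 95% Wilson intervals over peaks. The scWAT share of estradiol-only peaks at gene ends climbs to 86.5% in the strongest quartile, while their Liver share stays between 26.4% and 37.9%.

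In combination, 860 of the 2045 peaks (42.1%, 39.9 to 44.2) were found in none of the other tissues, against 57.8% (57.0 to 58.7) of estradiol-only peaks away from gene ends and 45.6% of the whole vWAT estradiol list. A further 478 (23.4%) were found in scWAT alone, 315 (15.4%) in scWAT and Liver, 256 (12.5%) in Liver alone, and 67 (3.28%, 2.59 to 4.14) in all 3 tissues, against 0.415% away from gene ends and 7.52% of the whole list. The strongest peaks found in all 3 were at Dsc2 (13.3), Plekhg3 (10.5), Pgm1 (9.63), the phosphoglucomutase gene of glycogen metabolism, Pgap4 (8.25), Trnt1, which adds the CCA end to tRNAs (8.15), Ckap2l (7.95), Cenpl, a centromere gene (7.53), and Blvra, the biliverdin reductase gene (7.45). The strongest found in none were at Cog2, a Golgi tether gene (9.01), Asmt, which encodes the last enzyme of melatonin synthesis (8.64), Fam110c (8.62), Hoxd11, a posterior homeobox gene (7.71), Eftud2, a spliceosome GTPase gene (7.58), Esyt2 (7.45), Tmem120a (7.28) and Gm52429 (7.13). Cog2 and Asmt also carried a peak held with vehicle at an end (5.95 and 4.49).

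Over all protein-coding genes, 2207 of 21631 (10.2%) had an estradiol-only peak at an end, and 3535 (16.3%) had one held with vehicle. Of the 2207 genes, 159 (7.20%) also had a held peak at an end. Held counts leave out vehicle peaks that overlap no estradiol peak. With every vehicle peak counted, 306 of the 2207 genes (13.9%) had one at an end, against 4524 (20.9%) of all genes. The rule leaves out peaks that overlap a vehicle peak. Low held and vehicle shares at these genes are thus partly set by it and are not a finding. The gene groups below are read beside the 10.2%, some genes stand in more than 1 group, and no group was tested. A peak within reach of 2 genes counts for both, at a start or a far end alike. Many peaks named below also reach a neighbouring gene. Examples are those at Cebpd (Spidr), Cct6a (Sumf2), Qars (Qrich1), Kars (Terf2ip), Med31 (4930563E22Rik) and Zfp131 (Gm46390). The peaks at Cct6a and Qars lay beyond the far end. The groups were chosen with earlier results of these data known. Their counts include peaks below a −log10 q-value of 2, among them those at Ep300 (0.930), Fbn1 (1.92), Lpl (1.76) and Slc2a4 (1.71).

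None of 26 estrogen response genes had an estradiol-only peak at an end, where a count of 0 allows a share of up to 11.5%. Greb1 and Pgr, the classical targets, were among them. Of these 26 genes 2 had a peak held with vehicle at an end (7.69%) and 4 had a vehicle peak there, which the rule does not count. Of the 37 nuclear receptor genes 2 had an estradiol-only peak at an end (5.41%), among them Nr2c1, a testicular receptor gene (4.09). Of 18 nuclear receptor cofactors 3 had one, among them Ncoa3, a coactivator of ERα (6.83), and Ep300, a histone acetyltransferase (3.04). The Ncoa3 peak lay 13 bp from an end of the gene with no strand given, and was also within reach of Sulf2. Of 18 stroma and matrix genes Fbn1, fibrillin (3.49), alone had one.

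Some fat storage and release genes had such peaks. Of 18 lipolysis and lipid droplet genes 6 had one (33.3%, 16.3 to 56.3), and 1 had a held peak. The median of the strongest peaks was 4.21 in this group, against 4.30 for the whole set. It was 4.72 for fatty acid uptake genes and 3.66 for lipogenesis and triglyceride assembly genes. Pnpla2, adipose triglyceride lipase, had 8.17 at chr7:141455623-141456422, 823 bp inside its start, found in scWAT and Liver. Abhd5, the activator of that lipase, had 6.32 at chr9:122351217-122351584, 302 bp outside its start and found in no other tissue. Plin5, a droplet coat protein (4.34, far end), and Cidea, a droplet fusion protein (4.08), followed.

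Of 14 fatty acid uptake genes 4 had one (28.6%, 11.7 to 54.6): Slc27a1, a fatty acid transporter (6.72), Acsl1, which activates fatty acids (5.36), Fabp5, a fatty acid binding protein (4.08), and Lpl, lipoprotein lipase (3.15). Of 18 lipogenesis and triglyceride assembly genes 2 had one, Dgat2, which completes triglycerides (3.76), and Scd2, a desaturase (3.56). Of 18 adipogenic factors 4 had one, with Zfp467 at 4.78, Stat5a and Stat5b sharing a peak of 4.58 between them, and Cebpd at 3.62.

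Of 18 insulin and glucose genes 4 had one. Pck1, which makes glycerol phosphate precursors in fat, had 6.38 at chr2:173152538-173153037, 303 bp outside its start, beside a weaker held peak (3.44). Pfkfb3, a glycolytic regulator, had 5.25, Tbc1d4, an insulin target that controls glucose transporter traffic, 5.08, and Slc2a4, the insulin-responsive glucose transporter, 3.46, with a vehicle peak 0.552 kb away. Of 16 adipokine genes 3 had one, at Il6 (4.18), Rbp4 (4.05) and the far end of Lep, the leptin gene (3.96). Of 16 circadian genes 3 had one, at Cry2, a clock repressor (7.20, found in all 3 other tissues), Per2 (5.75) and Tef (4.35).

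Immediate early genes, which respond within minutes to stimuli, had 7 of 20 (35.0%, 18.1 to 56.7). Zfp36, which destabilises cytokine transcripts, had 6.76 at its far end, Ier3 had 6.13, Ier2 4.59 and Atf3, a stress transcription factor, 4.53. Of these 4 the peak at Ier3 was found in scWAT, and none was found in BAT or Liver.

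Genes of protein synthesis, energy and protein turnover also had estradiol-only peaks, but more of them had peaks held with vehicle. Of 81 cytosolic ribosomal protein genes 17 (20.99%, 13.5 to 31.1) had an estradiol-only peak and 41 (50.6%) a held one, with the strongest estradiol-only peaks at Rps24 (6.63), Rplp1 (5.78), Rpsa (4.64) and Rpl36a (4.59). Of 82 oxidative phosphorylation genes 18 (22.0%, 14.4 to 32.1) had one and 41 a held one, led by Atp5k (7.79), Ndufs4 (5.49), Atp5h (5.46) and Atp5a1 (5.15). Of 78 mitochondrial ribosomal protein genes 13 (16.7%) had one and 49 (62.8%) a held one, with Mrpl15 (5.98), Mrpl41 (5.64, with a vehicle peak 0.099 kb away), Mrpl9 (5.10) and Mrpl38 (4.84) in front. Of 39 proteasome genes 10 (25.6%, 14.6 to 41.1) had one and 17 (43.6%) a held one, led by Psmd7 (6.08), Psmb2 (5.24), Psmb9 (5.24) and Psmc6 (4.95).

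The counts were 6 of 30 Mediator subunits, led by Med31 (5.26), 4 of 23 DNA replication genes, led by Pole (5.91), 3 of 22 cytosolic chaperones, with Cct6a (4.84, a vehicle peak 0.065 kb away and a held peak of 13.9 at the gene) and Hspa1a (4.84), and 2 of 20 chaperones of the endoplasmic reticulum, Pdia3 (4.18) and Pdia4 (4.15). The tRNA synthetases had 2 of 20, Qars (4.71, beside a held peak of 4.34) and Kars (4.23). In these 5 groups 52.2% to 65.0% of genes had a held peak. Zinc finger genes named Zfp had 55 of 367 (14.99%, 11.7 to 19), led by Zfp131 (7.53), and solute carriers 38 of 337 (11.3%, 8.33 to 15.1), led by Slc6a16 (8.16), Slc26a9 (7.88) and Slc25a36 (7.33). Histone genes had 7 of 96, led by H2al3 and by H4c11 (10.0). Olfactory receptor genes, silent outside sensory neurons as a rule, had 0 of 1106, which allows up to 0.271%, and no held peak.

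**Figure D5:**
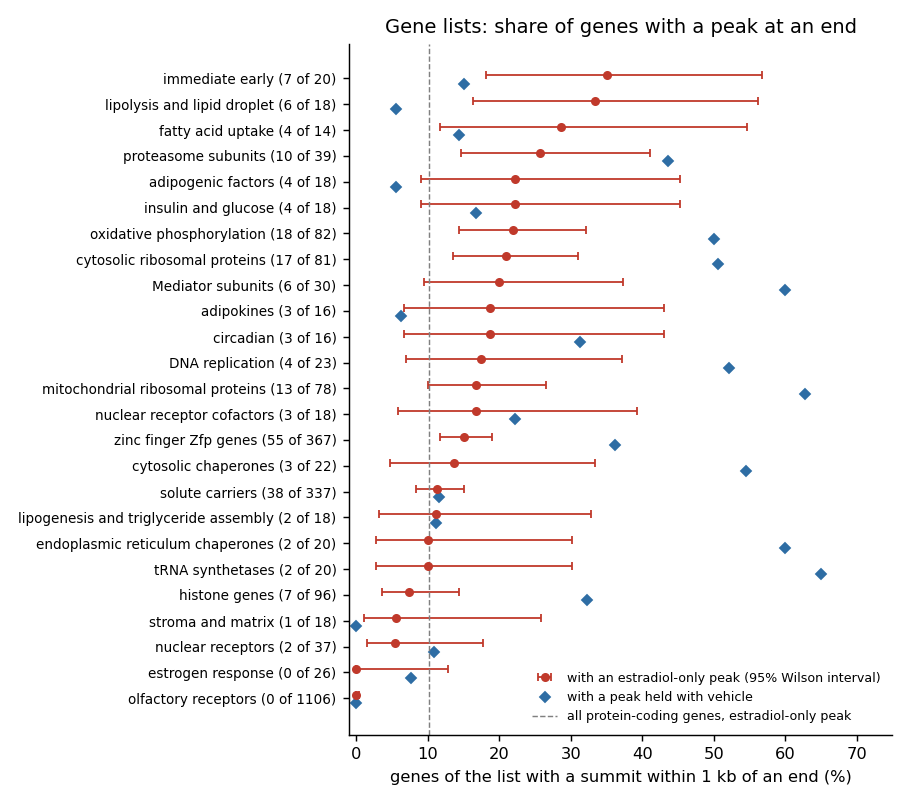
Share of the genes of 25 lists (x axis, %) with an estradiol-only peak (circles, 95% Wilson interval) or a peak held with vehicle (diamonds) within 1 kb of an end, with the number with an estradiol-only peak in brackets. The dashed line is the 10.2% of all protein-coding genes. Immediate early (35.0%, 18.1 to 56.7) and lipolysis genes (33.3%, 16.3 to 56.3) stand at the top for estradiol-only peaks, with wide intervals. The tRNA synthetase genes (65.0%) have the largest share of held peaks. The order of the lists was not tested, and they were chosen with earlier results of these data known.

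Promoter sequence was read for all 21020 annotated start windows of protein-coding genes in the RefSeq table, of which 2148 belonged to 1738 genes with an estradiol-only peak at an end. The windows were 300 bases long, and 407 of the 2045 summits (19.9%) lay inside one, against 54.7% of held summits. All motifs were searched on both strands, and a match is a description of letters and not a bound site. Promoters of genes with an estradiol-only peak were richer in CpG, with a median observed-to-expected ratio of 0.738, against 0.574 over all promoters. In windows holding an estradiol-only summit the median was 0.742, below the 0.799 of windows holding a held summit.

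The full estrogen response element (GGTCA, any 3 bases, then TGACC) was found in 2 of the 2148 promoters (0.0931%), those of Gm4606 and Tex45, and in 0.0523% of all promoters. The Gm4606 element, at chr14:72863562-72863574, lay inside an estradiol-only peak at chr14:72863158-72863642 (enrichment 5.79), with its middle 184 bp from the summit. The Tex45 element lay in no such peak. Neither window held a summit, and none of the 459 windows that held an estradiol-only summit had an exact match. With at most 1 of the fixed letters changed, a looser search chosen after the exact result was seen, 9 of the 459 windows matched (1.96%, 1.03 to 3.68), against 0.742% of the 1887 windows holding a held summit and 0.837% of all promoters. Overlapping windows of Sphk1 share 1 match, so 8 genes are involved. The matches nearest a summit were those of Vdac1, Pus10, Nlrp3 and Rbm42, and those of Idnk and Sphk1 are added for their enrichment. In the lines that follow, capitals mark the positions that the element fixes.
Vdac1: GGTCTaggTGACC
Pus10: GGTCAggcTGTCC
Nlrp3: TGTCAcagTGACC
Rbm42: GGTCAaagTGACG
Idnk: GGACAtgaTGACC
Sphk1: GGTCAggcTGTCC

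Vdac1, the outer mitochondrial membrane channel gene, had its match at chr11:52361483-52361495, with the middle 3 bp from the summit of a peak of 6.39 that was found in no other tissue. Pus10, a pseudouridine synthase gene, had its match at chr11:23665480-23665492, 11 bp from a summit of 4.83. Nlrp3, the inflammasome sensor gene, had its match at chr11:59541539-59541551, 21 bp from a summit of 11.3. Rbm42, an RNA-binding protein gene, had its match at chr7:30650363-30650375, on the minus strand, 24 bp from a summit of 5.18 and alone among the 8 genes in being found in Liver. Idnk, a gluconokinase gene, had its match at chr13:58157539-58157551, 76 bp from a summit of 10.5, and Sphk1, sphingosine kinase, at chr11:116531828-116531840, 93 bp from a summit of 6.56. These genes were picked for their matches after the values were seen.

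The single arm GGTCA was found in 49.0% (44.5 to 53.6) of windows holding an estradiol-only summit, against 38.1% (35.9 to 40.3) of windows holding a held summit and 39.5% of all promoters. Taken over all promoters of the genes, the share was 41.5% (39.4 to 43.6). Of the general promoter motifs, the CCAAT box (CCAAT) was found in 42.5% (38.0 to 47.0) of windows with an estradiol-only summit, 55.5% (53.3 to 57.8) of those with a held summit and 38.5% of all promoters. The ETS motif CCGGAAG, a site of GABPA and its relatives, was found in 21.8% (18.3 to 25.8), 30.8% (28.8 to 33.0) and 11.7%, the NRF1 motif in 14.4% (11.5 to 17.9), 9.96% (8.69 to 11.4) and 6.44%, and the YY1 motif AAGATGGCG in 8.28% (6.09 to 11.2), 4.66% (3.80 to 5.71) and 1.84%. The GC box GGGCGG was found in 59.3%, 58.1% and 46.6%, the TATA box TATAAA in 6.32%, 6.04% and 12.7%, and the E-box CACGTG in 9.15%, 9.27% and 7.91% in the same order.

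Windows whose estradiol-only peak was found in Liver were set beside those whose peak was not, and the intervals of the ETS, NRF1 and AP-1 shares do not overlap between them. The median CpG ratio was 0.800 in the 248 windows found in Liver and 0.672 in the 211 not found there. These windows belonged to 233 and 198 genes, and the intervals count overlapping windows as separate. ETS motifs were in 29.0% (23.7 to 35.0) of windows found in Liver and 13.3% (9.34 to 18.5) of the others, and NRF1 motifs in 20.6% (16.0 to 26.0) and 7.11% (4.36 to 11.4). The AP-1 motif TGANTCA, the site of Fos and Jun factors, was in 2.02% (0.864 to 4.63) of windows found in Liver and 10.4% (6.99 to 15.3) of the others, against 7.04% of all promoters. The estrogen element with at most 1 change was in 1 window found in Liver (Rbm42, 0.403%) and 8 of the others (3.79%, 1.93 to 7.30). Of these 8, 2 were overlapping windows of Sphk1 that share 1 match. The single arm GGTCA was in 49.2% of windows found in Liver and 48.8% of the others. ETS and NRF1 motifs are rich in CpG, and the part that base composition takes in these differences was not tested.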

How the data were processed

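The values are those of 5 ERα peak lists in narrowPeak layout, 1 for each group of libraries. The H3K27ac ChIP-seq and RNA-seq libraries of vWAT were not analysed here. The authors deposited, for every peak, an enrichment ratio (its background is unstated), a −log10 p-value, a −log10 q-value and a score. The score was not used. The submitters' processing notes name mm10 as the build, and BWA (0.7.12) with HOMER as tools, per the labels. Which program called the peaks, at which cut-off, against which control and after what merging of libraries is not given in the sources.

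Peaks sharing at least 1 bp were called shared. Gene spans came from the RefSeq table of GRCm38.p6, and strand and start windows from the RefSeq promoter table. Summits were measured to the ends of gene spans. Intervals are 95% Wilson intervals over peaks, windows or genes, and a count of 0 was given a limit of 3 counts. No test was made, since each group had 1 list, and depth is unknown. The genes named are the 15 with the strongest peaks, the 8 strongest found in all or in none of the other tissues, up to 4 of each list, those on either side of the 1 kb limit and the 5 with the strongest peaks at both ends. Of the 8 named genes whose promoter window held the summit, 6 are printed, chosen after their sequences were seen. The members and gene lists were chosen with earlier results of these data known. Overlap and distance steps were tested on simulated data. The software was Python (3.11.15), numpy (2.4.6), pandas (2.3.3), scipy (1.17.1) for intervals and, for figures, matplotlib (3.10.9). Alternatives covered the overlap rule, the reach from a gene end, a q-value minimum, lists of equal size, all genes of the table and, added after seeing the data, vehicle peaks within 1 kb and a changed letter in the estrogen element. The differences in share between classes of peaks or ends of genes were also not planned. Nor was the split of windows by presence in Liver. Some genes that this rule names are not reported here.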

Additional observations from a re-analysis of the deposited data

How the results depend on the processing

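The higher Liver share of estradiol-only peaks at gene ends than elsewhere kept its direction, with an interval above 0, under each alternative run. Between starts and far ends, here and below taken by the nearest end, the direction was kept, but at equal list size the interval spans 0. The scWAT difference changed sign at equal list size. Of 107 alternative values, 46 stayed within the interval or 1.5 times of the reported one. The cause of the moves was not tested.

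With every list held to 5193 peaks, the set held 165 peaks at 176 genes, 5.64% of estradiol-only peaks, with a median enrichment of 8.13. Of these, 58.2% were found in scWAT, 13.3% in BAT, 11.5% in Liver and 34.5% in none. The difference from peaks away from gene ends was −1.54 points in scWAT, a turned sign, and 9.27 points in Liver, and starts minus far ends gave 8.46 points in Liver (−6.52 to 17.8). The BAT difference was 4.39 points (−0.116 to 10.5).

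With summits at most 100 bp apart as the overlap, the share at gene ends was 16.4% and the median enrichment 4.47. The shares found were 28.2% in scWAT, 4.45% in BAT, 17.9% in Liver and 60.8% in none, and the differences were 0.0206 points in scWAT, 14.4 in Liver, and 14.8 between starts and far ends. With 50% of the shorter peak overlapped, they were 39.5%, 4.90%, 25.5% and 48.9%, with differences of 2.89 points in scWAT, 1.81 in BAT, 20.1 in Liver and 20.3 between ends.

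With a reach of 500 bp, 9.09% lay at gene ends, and 46.7% of these were found in scWAT, 8.04% in BAT, 38.4% in Liver and 36.5% in none, with differences of 8.71 points in scWAT, 4.60 in BAT, 31.3 in Liver and 31.5 between ends. With 2 kb, 17.0% lay at gene ends, 26.9% of these were found in Liver and 44.9% in none, and the Liver difference was 20.5 points. With −log10 q of at least 2 in every list, the median enrichment was 4.52 and the shares were 45.9% in scWAT, 1.89% in BAT and 28.3% in Liver, with a BAT difference of 0.457 points (−0.104 to 1.19). With all genes of the table, 18.04% lay at ends of 3322 genes, with a median enrichment of 4.39, 26.5% in Liver, 44.5% in none and a Liver difference of 20.3 points. Without peaks that had a vehicle peak within 1 kb, 11.9% lay at gene ends.

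Over windows that held the summit instead of all promoters of the genes, the share was 0 for the exact estrogen element, 49.0% for GGTCA, 42.5% for CCAAT, 59.3% for the GC box, 14.4% for NRF1, 21.8% for ETS and 8.28% for YY1. With at most 1 letter changed, the estrogen element was in 1.12% of all promoters of the genes.

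No paired analysis was possible because each group had 1 list covering all its libraries, and for the same reason no library was left out in turn. The lists differ in length and in number of libraries, their depth is unknown, and absence from a list does not show absence of binding.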
